A study of Sus scrofa with 70 samples.

Results

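The genes described here are the SPINK genes, which encode serine protease inhibitors of the Kazal type. They were taken as every gene of the deposited annotation whose gene name begins with SPINK, which gave 8 of 42873 annotated genes. Of these, 7 had values among the 35552 genes with RNA-seq levels, and 3 (SPINK7, SPINK9 and SPINK14) reached 1 TPM (transcripts per 1000000) or more in at least 3 libraries, the level set for testing. The samples came from 5 organs of boars at 12 months of age, the testis, the epididymis and 3 accessory glands (vesicular, prostate and bulbourethral), from 2 breeds. DSE is the Diannan small-ear pig. BMI is the Banna mini-pig inbred line, which descends from DSE pigs through matings between close relatives. Each breed and gland had 3 RNA-seq libraries, 30 in all, and 1 PacBio Iso-seq library of full-length transcripts, 10 in all. The labels do not say which region of the epididymis was taken, nor whether libraries with the same number came from the same boar, so the p-values below measure the spread between these libraries.

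A SPINK protein is usually a short secreted chain with a Kazal domain, a fold held together by disulfide bonds between cysteines, which blocks a protease by placing an exposed loop in its active site. SPINK1 protects the pancreas from its own trypsin, SPINK5, SPINK6 and SPINK9 hold back kallikreins in skin, SPINK4 is known from goblet cells of the gut and SPINK7 from oesophageal epithelium. In the male tract, Kazal inhibitors are known from the sperm acrosome and from seminal plasma, where they meet acrosin and other trypsin-like proteases. The physiological target of SPINK14 is less well established.

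The genes lie close together. SPINK1 (ENSSSCG00000034511), SPINK5 (ENSSSCG00000014422), SPINK14 (ENSSSCG00000033173), SPINK6 (ENSSSCG00000058580), SPINK7 (ENSSSCG00000054392) and SPINK9 (ENSSSCG00000014426) span 563.2 kb of chromosome 2, from 149071703 to 149634932 in the build Sscrofa11.1. SPINK1 is on the minus strand and the other 5 are on the plus strand. SPINK4 (ENSSSCG00000010997) is at chr10:33246247-33255688 and SPINK8 (ENSSSCG00000045798) at chr13:31062201-31086710, both on the minus strand.

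The coding sequences of the 3 tested genes are shown because they carry the pattern that defines the family. They were read from the genome over the coding exons, on the plus strand, and capitals mark the codons for cysteine. For SPINK7 the frame of 85 codons inside its Iso-seq isoform is shown, of the 124 codons annotated by Ensembl.
SPINK14, chr2:149415914-149423278, 297 bases: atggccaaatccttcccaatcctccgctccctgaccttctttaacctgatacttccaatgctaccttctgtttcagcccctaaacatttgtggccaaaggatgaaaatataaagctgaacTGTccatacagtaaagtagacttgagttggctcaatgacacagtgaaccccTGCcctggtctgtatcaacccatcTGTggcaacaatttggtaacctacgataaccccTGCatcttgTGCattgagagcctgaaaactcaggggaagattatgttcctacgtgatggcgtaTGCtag
SPINK7, chr2:149611734-149615042, 258 bases: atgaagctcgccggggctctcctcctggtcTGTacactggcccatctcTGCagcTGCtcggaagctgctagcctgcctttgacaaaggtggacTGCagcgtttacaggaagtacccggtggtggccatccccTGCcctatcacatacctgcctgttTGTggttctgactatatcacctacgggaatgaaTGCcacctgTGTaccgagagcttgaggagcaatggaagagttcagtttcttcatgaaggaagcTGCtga
SPINK9, chr2:149630330-149634852, 255 bases: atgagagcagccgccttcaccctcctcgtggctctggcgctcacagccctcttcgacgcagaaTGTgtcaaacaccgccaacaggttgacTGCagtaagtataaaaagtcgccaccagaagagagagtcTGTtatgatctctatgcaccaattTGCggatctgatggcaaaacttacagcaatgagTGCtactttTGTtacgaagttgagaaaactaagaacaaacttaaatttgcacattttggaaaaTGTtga
The last 6 cysteine codons of each sequence are those of the Kazal domain. In all 3 genes the second to the fifth interval between these cysteines were 7, 10, 2 and 17 codons long, as they also were in SPINK1, SPINK4 and SPINK6. SPINK8 differed at the second interval, with 12 codons. The first interval varied most. It was 16 codons in SPINK14, 12 in SPINK7 and in SPINK9, 9 in SPINK6, 8 in SPINK4 and 6 in SPINK1 and SPINK8. SPINK5, which is built from many such domains, had 59 cysteine codons among 993 codons.

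The codon 2 places after the second cysteine is shown for each gene because in Kazal inhibitors it encodes the residue that enters the pocket of the protease, and trypsin is known to take lysine or arginine there. SPINK1 had aag, a lysine codon, and SPINK4 and SPINK6 had cgg, an arginine codon. None of the 3 tested genes had either kind. SPINK14 had ggt, SPINK7 had atc and SPINK9 had gat, and SPINK8 had att.

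SPINK14 was the most abundant SPINK gene and was high in the epididymis. Its gene total there was 3953, 2162 and 11184 TPM in BMI replicates 1 to 3 and 386, 4744 and 1558 TPM in DSE replicates 1 to 3, with a mean of 3998 ± 3862 TPM (SD, n = 6). All 6 libraries were above every library of the other glands, although they differed 29.0-fold among themselves, and the lowest of them (386 TPM) was nearer to the highest vesicular gland library (119 TPM) than to the highest epididymis library. SPINK14 was the gene of rank 9 in BMI epididymis 3, where it held 1.12% of all TPM, and of rank 271 in DSE epididymis 1, where it held 0.0386%. The vesicular gland came next, with 46.7, 86.8 and 119 TPM in BMI and 26.5, 29.9 and 26.1 TPM in DSE (mean 55.8 ± 38.6, SD, n = 6). In the prostate gland BMI replicate 2 had 31.1 TPM, BMI replicate 1 had 0.0619 TPM and the other 4 libraries were listed at 0. Testis was listed at 0 in 5 of 6 libraries, with 0.18 TPM in DSE replicate 2, and no bulbourethral library exceeded 0.144 TPM.

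**Figure D1:**
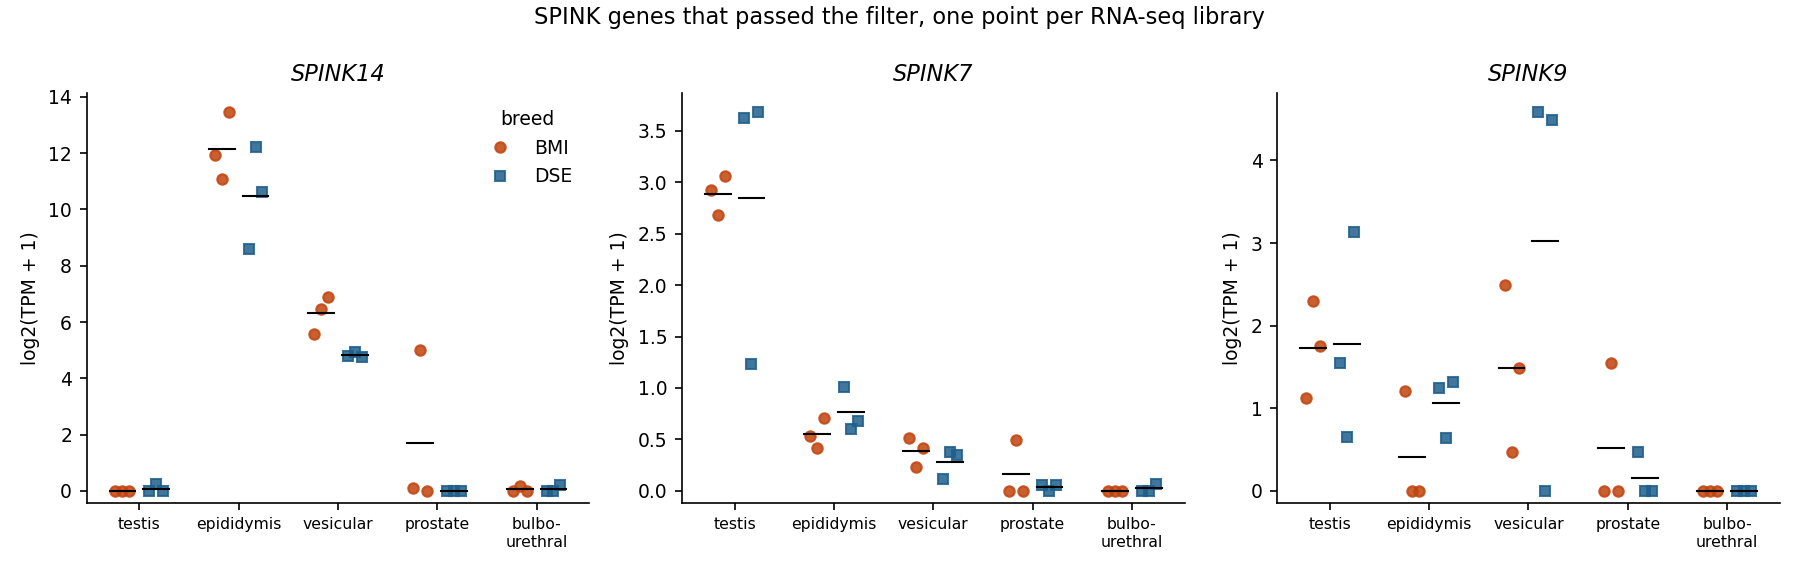
Gene totals of SPINK14, SPINK7 and SPINK9 on the scale log2(TPM + 1), 1 point per RNA-seq library, by gland and breed, with a bar at the mean of each group of 3. SPINK14 is highest in all 6 epididymis libraries, SPINK7 in testis, and SPINK9 is spread widely within the vesicular gland.

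Each gland was compared with the mean of the other 4 in 1 fit of limma to log2(TPM + 1) over the 30 libraries, with Benjamini-Hochberg adjustment over the 19796 genes tested. A gene was called at an adjusted p under 0.05 and a difference of at least 1 on the log2 scale. SPINK14 was higher in the epididymis by 9.69 ± 0.49 (log2 difference ± SE, limma adjusted p = 9.683e-14), a direction in which 15.1% of all genes tested were called. It was also higher in the vesicular gland by 2.51 ± 0.49 (limma adjusted p = 8.545e-05), where 2.95% of genes were called higher. It was lower in testis (-4.41, limma adjusted p = 1.381e-08), in the prostate gland (-3.40, 3.968e-06) and in the bulbourethral gland (-4.38, 7.794e-08), where 12.7%, 12.8% and 12% of genes were called lower. The mean of the others holds the high levels of epididymis and vesicular gland in each of these 3 comparisons.

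Between pairs of glands, 16 of the 30 comparisons of the 3 genes were called, or 7 of 10 for SPINK14, 4 of 10 for SPINK7 and 5 of 10 for SPINK9, against 33.1% over all genes and pairs. For SPINK14, epididymis exceeded vesicular gland by 5.74 ± 0.62 (limma adjusted p = 5.962e-08), 53.6-fold on this scale, where 34.5% of genes were called higher. Vesicular gland exceeded prostate gland by 4.72 ± 0.62 (limma adjusted p = 3.141e-06), where 3.42% of genes were called higher. Testis, prostate gland and bulbourethral gland did not differ beyond the spread. Their differences were -0.81 for testis minus prostate gland (95% interval -2.09 to 0.47, limma adjusted p = 0.257), 0.79 for prostate minus bulbourethral gland (-0.49 to 2.07, 0.4673) and -0.02 for testis minus bulbourethral gland (-1.30 to 1.26, 0.9871). Those with the prostate gland rested on BMI replicate 2 (31.1 TPM), without which they were 0.02 (95% interval -0.86 to 0.90, limma adjusted p = 0.9804) and -0.04 (-0.92 to 0.84, 1). In bulk tissue such as this, fewer cells of a type and less RNA per cell cannot be told apart.

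**Figure D2:**
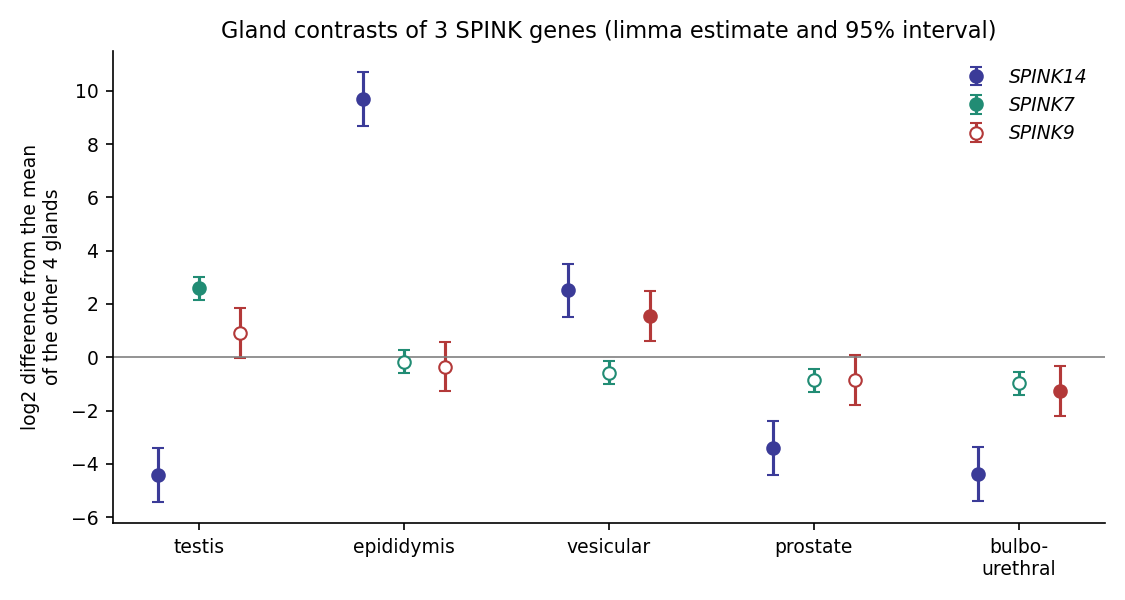
The limma estimate of each gland against the mean of the other 4, in log2 units, for SPINK14, SPINK7 and SPINK9, with 95% intervals. Filled points passed both thresholds. SPINK14 stands at 9.69 in the epididymis, SPINK7 at 2.59 in testis and SPINK9 at 1.55 in the vesicular gland.

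Nearly all of the SPINK14 signal came from a transcript that the Ensembl annotation does not hold. An Iso-seq isoform of 684 bp with 5 exons made up 99.4% ± 0.57 of the gene total in the epididymis (SD, n = 6, from 98.2 to 99.7%) and 99.4% ± 0.22 in the vesicular gland (SD, n = 6). The Ensembl transcript, of 1303 bp and 4 exons, held 0.596% and 0.632%. The isoform begins at chr2:149414641, 1216 bases before the Ensembl start. It adds a first exon of 133 bases (149414641 to 149414773), and the Ensembl first exon is its second. It ends 752 bases before the Ensembl end. With totals over Ensembl transcripts alone, the epididymal difference remained called and that of the vesicular gland turned to -0.50 (limma adjusted p = 0.057). The differences of vesicular gland from testis, prostate gland and bulbourethral gland then fell to 0.43 in size and were not called.

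**Figure D3:**
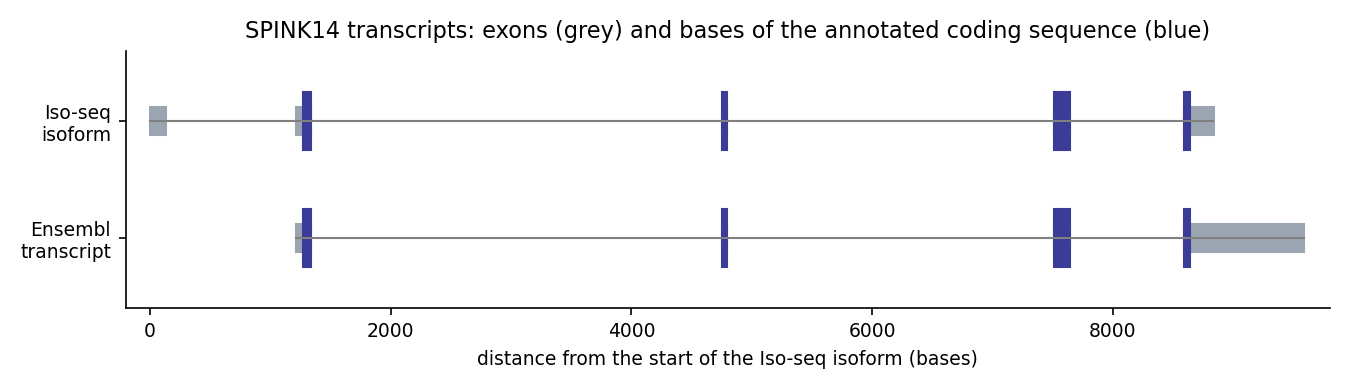
Exons of the 2 SPINK14 transcripts drawn to scale, as boxes along the distance in bases from the start of the Iso-seq isoform, with the annotated coding bases in blue. The isoform has 1 exon upstream of the Ensembl start at 1216 bases and a shorter last exon, and the coding bases fall within exons of both.

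The added exon is joined to the rest by regular splice sites. The 4 introns of the isoform, of 1083, 3410, 2711 and 947 bases, all begin with gt and end with ag. All 4 coding segments of the Ensembl transcript, 297 bases in all, fall within exons of the isoform, which leaves 190 bases before the start codon, with 1 other ATG among them, and 197 after the stop codon. The deposited isoform table marks it as non-coding and the deposited annotation gives it no coding segment.

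The 250 bases before the start of the isoform are shown because they stand where a promoter of the abundant transcript would be read, and the 26 bases in capitals are those that the first exon of RefSeq adds upstream of the Iso-seq start.
SPINK14, chr2:149414391-149414640, plus strand: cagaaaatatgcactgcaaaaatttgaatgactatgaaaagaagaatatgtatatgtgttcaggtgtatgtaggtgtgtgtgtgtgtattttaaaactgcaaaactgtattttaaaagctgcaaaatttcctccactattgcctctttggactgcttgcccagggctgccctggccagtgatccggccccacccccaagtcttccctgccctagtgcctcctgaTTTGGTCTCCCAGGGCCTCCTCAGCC
The bases around the Ensembl start are shown because that start is a splice site in the isoform. Capitals mark the AG that precedes the exon.
SPINK14, chr2:149415777-149415876, plus strand: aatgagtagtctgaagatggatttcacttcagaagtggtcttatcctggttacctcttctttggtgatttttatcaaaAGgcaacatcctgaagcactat
Neither the letters TATAAA, the core of the TATA box, nor AGAACA, a partial site of the androgen receptor, occurred on either strand of the 250 bases before the Iso-seq start or before the Ensembl start of SPINK14. Over 41257 gene starts, 15% of windows of this length held TATAAA and 14.7% held AGAACA. The letters TATAAA occurred at position -54 from the start of SPINK5 and at -91 from that of SPINK7. The letters AGAACA occurred at -210 from the start of SPINK7 and at -129 from that of SPINK8. No match overlapped another. These matches describe the letters of the windows and no binding was measured.

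Full-length reads of the family were few. Of 110996 isoforms, 2 belonged to SPINK genes, 1 of SPINK14 and 1 of SPINK7, with 9 of 3468110 full-length reads between them. SPINK14 had 3 reads in DSE epididymis, or 13.0 per 1000000 full-length reads (exact Poisson 95% interval 2.67 to 37.9), 1 in BMI vesicular gland (3.40 on the same scale) and 1 in DSE vesicular gland (3.14). BMI epididymis had 0 of 458697 reads, for which the upper bound of the same interval was 8.04 per 1000000 and the limit set by 3 reads was 6.54. These intervals and limits cover counting error only, and with 1 library per breed and gland no test was made. The 2 glands with reads were those in which every RNA-seq library held over 1 TPM of SPINK14. Both prostate gland libraries had 0 reads. Isoforms under 800 bp were 981 of all isoforms (0.884%), against a median length of 3316 bp. Among isoforms under 800 bp with at least 100 TPM, the median ratio of full-length reads per 1000000 to TPM was 0.0027 in BMI epididymis and 0.0099 in DSE epididymis. Among those of at least 3000 bp it was 1.05 and 1.06. No isoform joined a SPINK gene to another gene or lay antisense to one, and the other 6 genes had no isoform.

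The genes with the most similar levels over the 30 libraries were EDDM3B (Pearson r = 0.980), a secreted epididymal ribonuclease-like protein, the beta-defensin DEFB115 (0.970), CCDC190 (0.955), the carboxypeptidase gene CPB2 (0.954) and PAX2 (0.951), a transcription factor of the kidney and the excretory ducts. These correlations rest largely on the step between the epididymis and the other glands and are given as a description. Within the epididymis the 5 genes did not order the libraries alike. EDDM3B had 1823, 2846 and 6389 TPM in the BMI epididymis libraries and 602, 1510 and 2139 TPM in those of DSE. DEFB115 had 1421, 1092 and 3335 TPM in BMI and 337 to 851 TPM in DSE. BMI replicate 3 was the highest library and DSE replicate 1 the lowest for both genes, as for SPINK14, but DSE replicate 2, the second highest for SPINK14, was the second lowest for both. CPB2 (111 TPM) and PAX2 (257 TPM) were highest in BMI replicate 2, and PAX2 was lowest in DSE replicate 2 (106 TPM).

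Other epididymal genes ordered the libraries differently. GPX5, a glutathione peroxidase of epididymal secretion, had 8449 TPM in BMI replicate 2 and 4.42 TPM in BMI replicate 3, the library with the most SPINK14. The lipocalin LCN8 had 9677 TPM and RNASE10 had 10290 TPM in BMI replicate 2, against at most 21.2 and 20.1 TPM in the other 5 libraries. Other listed markers were highest elsewhere, LCN10 (1429 TPM) and BSPH1 (1778 TPM) in DSE replicate 1 and DEFB129 (5193 TPM) in DSE replicate 3. ADAM7 was more even, from 468 TPM in DSE replicate 2 to 2780 TPM in BMI replicate 2. CRISP1, a sperm-coating protein, had 1100 to 2759 TPM in 5 libraries and 21.3 TPM in DSE replicate 1, which was also the lowest in SPINK14. The 16 listed epididymal markers had 12 genes tested, of which 11 were higher in the epididymis and 1 lower, against 15.1% and 6.56% of all genes. Their median log2 difference was 4.92, against 0.31 over all genes with a symbol. Their sum ran from 2402 TPM in BMI replicate 1 to 47150 TPM in BMI replicate 2. CRISP3 was listed at 0 in 5 of the 6 libraries. The libraries labelled epididymis thus carried epididymal markers, in unequal amounts. The part of the sampled region in the spread of SPINK14 was not tested.

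**Figure D4:**
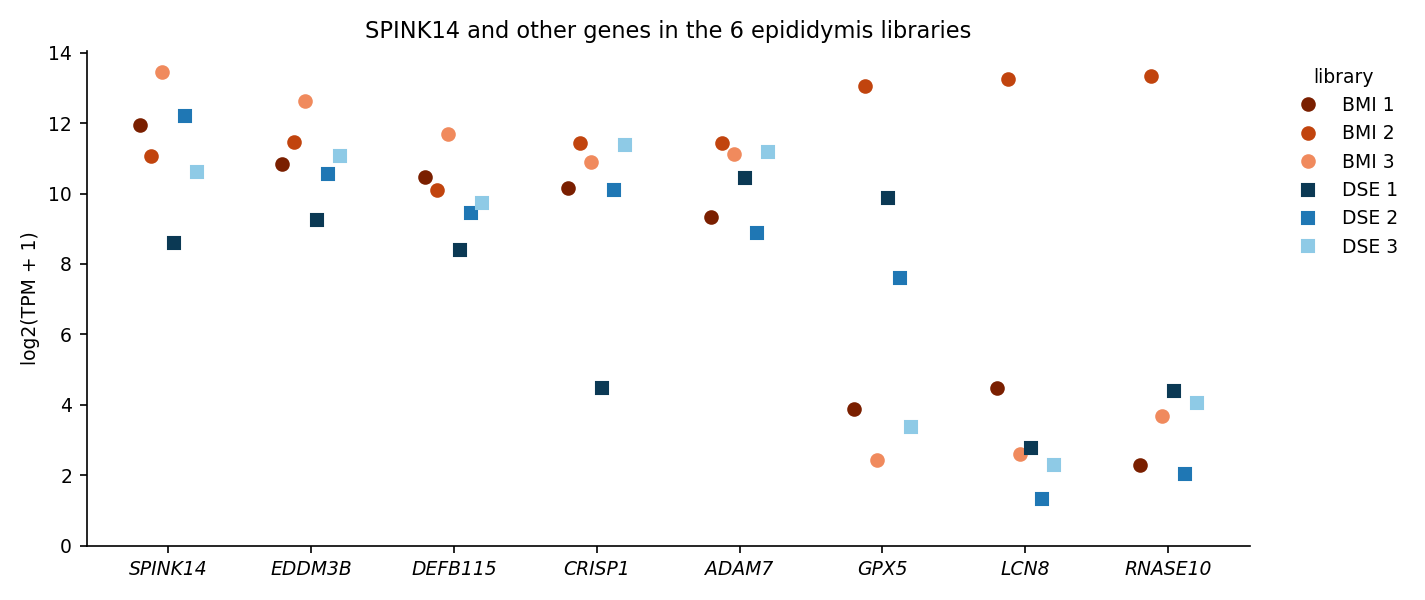
Levels of SPINK14 and 7 other genes in the 6 epididymis libraries on the scale log2(TPM + 1), 1 symbol per library. BMI replicate 3 is highest for SPINK14, EDDM3B and DEFB115, and BMI replicate 2 is highest for GPX5, LCN8 and RNASE10.

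The library BMI prostate gland 2 stood apart from the other 5 of its gland. It alone held over 1 TPM of SPINK14 and it was also the highest prostate library for SPINK9 (1.93 TPM) and SPINK7 (0.41 TPM). The 50 genes highest in vesicular gland against testis, epididymis and bulbourethral gland, chosen after the data were seen, summed to 324000 TPM in it. They summed to 1098 to 1833 TPM in the other 5 prostate libraries and to 409800 to 536800 TPM in the vesicular gland. The prostate markers summed to 89100 TPM in it, against 104200 to 179600 TPM in the others. Without it, the SPINK14 difference between vesicular and prostate gland was 5.55, and that of prostate gland against the other 4 was -4.22. The part of vesicular gland RNA in these values was not tested.

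SPINK7 was highest in testis. It had 6.62, 5.40 and 7.36 TPM in BMI testis and 11.3, 1.36 and 11.8 TPM in DSE testis (mean 7.32 ± 3.90, SD, n = 6). Every testis library exceeded every library of the other glands, since the highest of these was 1.01 TPM, in DSE epididymis 1. The epididymis had 0.337 to 1.01 TPM and the vesicular gland 0.0863 to 0.425 TPM, and the prostate gland reached 0.41 TPM and the bulbourethral gland 0.0498 TPM.

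SPINK7 was higher in testis than in the mean of the other 4 glands by 2.59 ± 0.21 (limma adjusted p = 2.74e-11), a direction in which 34.6% of all genes were called. The gene met the level set for testing only through the testis libraries, since outside them only DSE epididymis 1 reached 1 TPM. Its tests of testis are therefore not independent of that filter. Against the epididymis, the next gland in order, the difference was 2.21 ± 0.26 (limma adjusted p = 5.043e-08), where 29.4% of genes were called higher in testis. The other 4 glands did not separate from each other by the thresholds. With a pseudocount of 0.1 in place of 1, 4 of their 6 pairs were called, those of epididymis and of vesicular gland with prostate and bulbourethral gland, from 1.24 (limma adjusted p = 0.02773) to 2.63 (3.088e-05). Neighbours in their order differed by 0.32 (epididymis and vesicular gland, 95% interval -0.22 to 0.86), 0.23 (vesicular and prostate gland, -0.31 to 0.77) and 0.09 (prostate and bulbourethral gland, -0.45 to 0.63).

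The lowest testis library for SPINK7, DSE replicate 2, was also low in germ cell markers. The 11 spermatid markers, among them the protamine genes PRM1 and PRM2, summed to 26190 TPM there and to 78640 to 119900 TPM in the other 5 testis libraries. The 8 spermatocyte markers measured summed to 117 TPM there and to 280 to 439 TPM in the others. All 11 spermatid markers and all 8 spermatocyte markers were higher in testis, against 34.6% of all genes. Their median log2 differences were 8.35 and 4.50, against 0.28 over all genes with a symbol. No listed marker was at 0 in any testis library, and the part of the germ cells in the level of SPINK7 was not tested. The genes most similar to SPINK7 over the 30 libraries were PMEL (Pearson r = 0.973), ZCWPW1 (0.970), known from meiosis, IMPG1 (0.969), and IQCG (0.968) and CLXN (0.967), both known from cilia and flagella. All 5 were highest in testis.

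Both testis Iso-seq libraries held SPINK7. The isoform, of 590 bp and 4 exons, had 2 reads in DSE testis (4.37 per 1000000, exact Poisson 95% interval 0.529 to 15.8) and 2 in BMI testis (4.40 per 1000000, 0.532 to 15.9), and none elsewhere. Its splice sites match the Ensembl transcript. It begins at 149611686, which is 268 bases after the gene start and after the Ensembl start codon at 149611617. The next ATG in frame is at 149611734, and the frame from there has 85 codons, those of the sequence printed above, against 124 in Ensembl. The last exon of the Ensembl SPINK7 transcript overlaps an antisense gene (ENSSSCG00000061955) over 435 bases. The sources used here do not state whether the libraries keep the strand, and the deposited values gave the antisense gene means of 0.0102 TPM in testis and at most 0.0553 TPM in any gland.

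SPINK9 was found in the vesicular gland and in testis. Vesicular gland had 4.63, 0.389 and 1.80 TPM in BMI and 22.9, 0 and 21.6 TPM in DSE (mean 8.55 ± 10.7, SD, n = 6), so that the libraries of a single breed ranged from 0 to over 20 TPM. Testis had 1.18, 3.90 and 2.38 TPM in BMI and 1.93, 0.565 and 7.76 TPM in DSE (mean 2.95 ± 2.62, SD, n = 6). The epididymis reached 1.49 TPM and the prostate gland 1.93 TPM, and the bulbourethral gland was listed at 0 in all 6 libraries. As for SPINK7, DSE replicate 2 was the lowest testis library.

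SPINK9 was higher in the vesicular gland than in the mean of the others by 1.55 ± 0.45 (limma adjusted p = 0.003713) and lower in the bulbourethral gland (-1.27 ± 0.45, 0.02049). In testis the difference of 0.92 (95% interval -0.01 to 1.85, limma adjusted p = 0.06904) did not pass, though with a pseudocount of 0.1 it was 2.47 (limma adjusted p = 0.01254). From vesicular gland through testis, epididymis and prostate gland down to bulbourethral gland, no neighbours differed beyond their spread. The intervals were -1.68 to 0.67 for testis minus vesicular gland, -0.16 to 2.19 for testis minus epididymis, -0.78 to 1.58 for epididymis minus prostate gland and -0.84 to 1.51 for prostate minus bulbourethral gland. Called pairs were further apart. Vesicular gland exceeded bulbourethral gland by 2.26 (limma adjusted p = 0.001912), prostate gland by 1.92 (0.01135) and epididymis by 1.52 (0.02352), with 1.91% of genes called higher in vesicular gland than in epididymis. Testis exceeded bulbourethral gland by 1.75 (0.008894) and prostate gland by 1.41 (0.03172). DSE vesicular gland 2, listed at 0, moved the called differences of the vesicular gland most. Without it the vesicular gland exceeded the mean of the others by 2.31 (limma adjusted p = 1.79e-06), bulbourethral gland by 3.01, prostate gland by 2.67 and epididymis by 2.28. With each single library left out in turn, the lowest difference from the mean of the others was 1.16. The calls against the epididymis and of testis against prostate gland were lost when some single libraries were left out. The genes most similar to SPINK9 were RLN3 (Pearson r = 0.762), DDHD1 (0.688), NR0B1 (0.681), CACNB2 (0.671) and NWD2 (0.670), a looser likeness than that found for SPINK14 and SPINK7.

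The remaining SPINK genes reached 1 TPM in at most 2 libraries each, and their levels are given without a test. SPINK1, the trypsin inhibitor of the pancreas, had 16.4 TPM in DSE epididymis 1 and 0.812 TPM in DSE epididymis 3, and at most 0.0462 TPM in any other library. SPINK6 had 4.24 and 3.08 TPM in DSE epididymis 2 and 3, 0.868 and 0.828 TPM in BMI epididymis 1 and 3, and 0 in the other 2 epididymis libraries. Outside the epididymis it did not exceed 0.312 TPM. SPINK4 reached 1.66 TPM in BMI testis 3 and 1.07 TPM in BMI epididymis 2, and was listed at 0 in every prostate library. SPINK8 had no values.

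**Figure D5:**
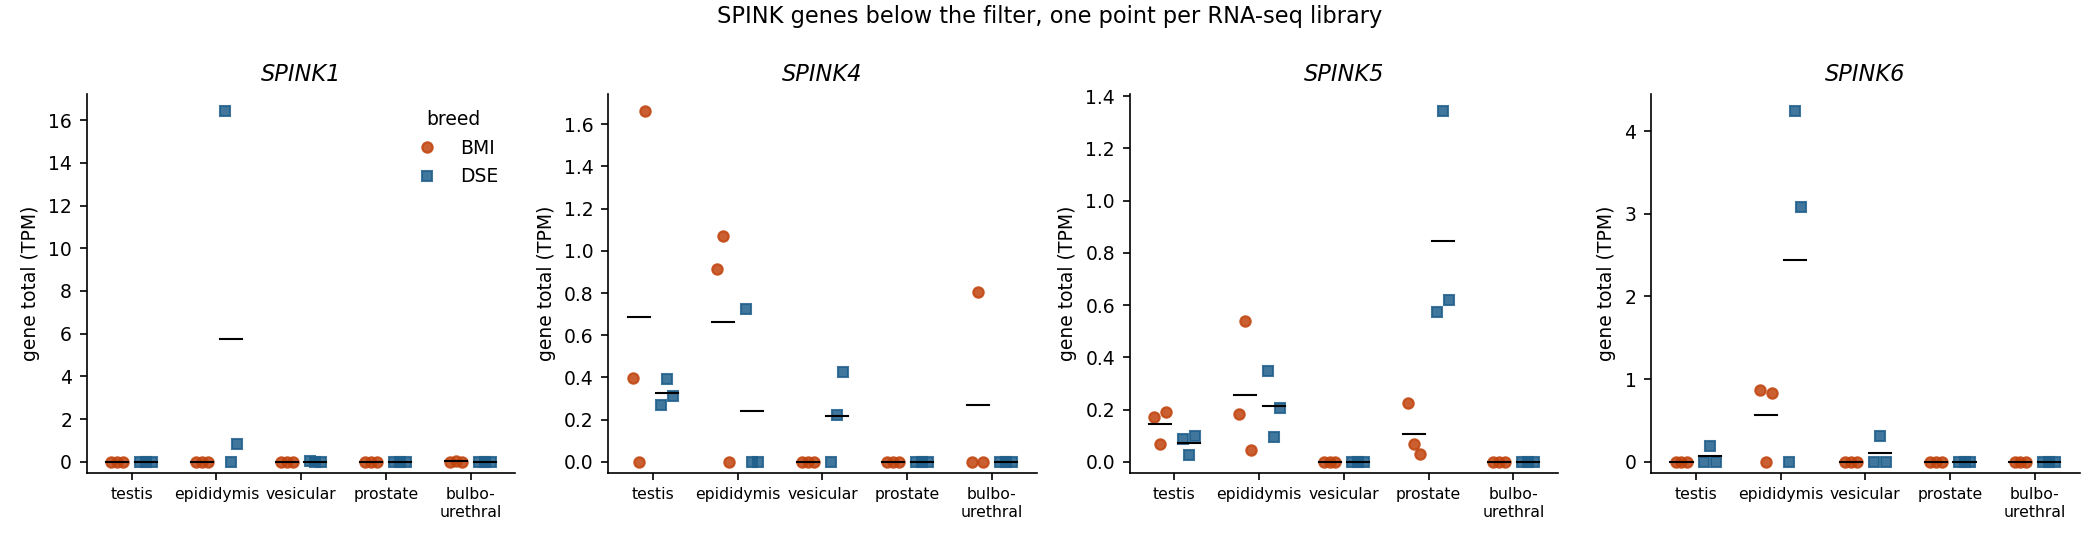
Gene totals in TPM of the 4 SPINK genes below the level set for testing, 1 point per RNA-seq library, with a bar at the mean of each group of 3 and a separate axis for each gene. SPINK1 is above 1 TPM in a single epididymis library, and SPINK6 is highest in the epididymis.

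SPINK5 encodes LEKTI, the inhibitor of many domains that is lost in Netherton syndrome. Its values were low but ordered by breed in the prostate gland, with 0.224, 0.0672 and 0.0311 TPM in BMI and 0.573, 1.34 and 0.621 TPM in DSE. The 3 DSE libraries all exceeded the 3 BMI libraries. The summed level of 6 mucous gland markers was ordered likewise in the same libraries, at 248 to 572 TPM in BMI and 1134 to 2533 TPM in DSE, and its part in the values of SPINK5 was not tested. Of the genes tested, 29.6% also had higher and not overlapping values in DSE prostate gland, and SPINK5 itself was below the level for testing. Testis had 0.0254 to 0.189 TPM, the epididymis 0.0441 to 0.539 TPM, and vesicular and bulbourethral gland were listed at 0 in all libraries.

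None of the 3 tested SPINK genes was called between breeds. Each gland was tested on its own 6 libraries, DSE minus BMI, by limma with adjustment over all genes. Of all genes, 0.162% were called in testis, 0% in the epididymis, 0.0152% in the vesicular gland, 0.52% in the prostate gland and 0% in the bulbourethral gland. At an unadjusted p under 0.05 there were 553 genes in the epididymis and 1306 in the bulbourethral gland. SPINK14 was the only tested SPINK gene whose breeds did not overlap in a gland. In the vesicular gland all 3 DSE libraries (26.1 to 29.9 TPM) were below all 3 BMI libraries (46.7 to 119 TPM). The difference was -1.48 ± 0.37 (95% interval -2.45 to -0.52, unadjusted p = 0.01152, limma adjusted p = 0.2266), and 21.1% of all genes were lower in DSE vesicular gland without overlap. With median-of-ratios size factors, which moved the median of all genes in this comparison from -0.27 to 0, it was -0.98 (limma adjusted p = 0.4312).

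The other breed differences had wide intervals. SPINK14 differed by -1.69 ± 1.13 in the epididymis (95% interval -4.59 to 1.22, limma adjusted p = 1), and its breeds overlapped there. Without DSE epididymis 1 the difference was -0.75, and without DSE epididymis 2 it was -2.56. In the prostate gland the value was -1.70 ± 1.53, and -0.04 without BMI replicate 2. SPINK7 in testis differed by -0.04 (-1.82 to 1.73, limma adjusted p = 0.9943), and SPINK9 in the vesicular gland by 1.54 (-2.41 to 5.49, 0.5894). Over all glands the breed difference was -0.96 ± 0.39 for SPINK14 (limma adjusted p = 0.2223; -0.62 without BMI prostate gland 2), -0.01 ± 0.17 for SPINK7 (0.9922) and 0.38 ± 0.36 for SPINK9 (0.7098), where 0.384% of genes were called. The interaction of breed and gland was not called for any of them (limma adjusted p = 0.6453, 0.9925 and 0.7163, against 2.6% of genes called).

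Proteases that Kazal inhibitors could meet were spread over all glands. Of 77 trypsin-like serine proteases listed, 34 were tested. Testis had 15 higher and 10 lower, epididymis 7 and 9, vesicular gland 3 and 12, prostate gland 6 and 8, and bulbourethral gland 9 and 7, with medians from -0.67 in vesicular gland to -0.01 in testis, against -0.76 and 0.28 over all genes with a symbol. Of all genes, 34.6% were called higher and 12.7% lower in testis, 15.1% and 6.56% in epididymis, 2.95% and 30.1% in vesicular gland, 3.69% and 12.8% in prostate gland, and 8.45% and 12% in bulbourethral gland. The most abundant genes of the list were PRSS37 (524 TPM) and the acrosin gene ACR (344 TPM) in testis, PRSS22 (247 TPM) in bulbourethral gland and TMPRSS2 (190 TPM) in vesicular gland. Whether each listed gene encodes an active protease was not tested. In testis, where SPINK7 was highest, ACR was higher than in the other glands by 8.19 ± 0.17 (limma adjusted p = 2.719e-22). Of 16 acrosome proteins tested, 15 were higher in testis (median 7.33), with CRISP2 (1774 TPM), DKKL1 (1633 TPM) and ACRBP (744 TPM) the most abundant there. PDIA3, a general chaperone on the same list, was highest in the epididymis (816 TPM).

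A list of 23 other genes with Kazal domains held genes with a symbol only, so that inhibitors without one are not in its counts. Of these 22 were tested, and 14 were higher in the epididymis and 0 lower, against 15.1% and 6.56% of all genes (median 1.23, against 0.31 over all genes with a symbol). This count rested largely on 2 libraries. The listed genes summed to 7197 TPM in BMI epididymis 1 and 4041 TPM in DSE epididymis 2, and to 1052 to 2049 TPM in the other 4, and 7 skeletal muscle markers summed to 689.6 and 101.9 TPM in these libraries against 2.99 to 31.0 TPM in the others. Without both, an alternative chosen after seeing the data, 4 of 22 were higher and 0 lower (median 0.78), against 12.9% of all genes. The part of muscle tissue in the count was not tested. The vesicular gland had 0 higher and 9 lower, testis 3 and 7, prostate gland 1 and 2, and bulbourethral gland 2 and 4, to be read against the same shares of all genes as the proteases. The most abundant on the list were IGFBP7 (1004 TPM), SPARC (984 ± 1050 TPM, SD, n = 6), SPARCL1 (286 TPM) and FSTL1 (209 TPM) in the epididymis, which are matrix and signalling proteins of connective tissue. Between breeds, 1 relative was higher in DSE prostate gland, and no protease, acrosome or relative gene was called elsewhere.

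The remaining marker lists followed the labels of the glands, and no marker list was held for the vesicular gland. Of 7 prostate markers 4 were higher in the prostate gland, against 3.69% of all genes, led by MSMB (131500 TPM), and of 6 mucous gland markers tested 5 were higher in the bulbourethral gland, led by AGR2 (12400 TPM) and TFF3 (10740 TPM). Of the 6 tested markers of squamous and keratinised epithelium, where several SPINK genes are known, 4 were higher in the epididymis and 3 in the bulbourethral gland, against 15.1% and 8.45% of all genes. Of 4 skeletal muscle markers tested, 2 were higher in bulbourethral gland and 1 in the epididymis, and of 10 markers of macrophages and lymphocytes, 3 and 1, of which the last is a smaller share than the 15.1% over all genes. TPM sum to the same total in each library, so the number of reads behind a value cannot be read from it, and a few transcripts took much of the sum. The 10 most abundant transcripts held 9.24 to 22% of TPM in testis and epididymis and 26.4 to 64.7% in the accessory glands. Scaling by median-of-ratios size factors moved the median difference of all genes from -0.69 to -0.20 in vesicular gland and from 0.25 to -0.14 in epididymis, and left every direction of the SPINK calls as it was.

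The genes beside SPINK14 were at other levels. On its left is ENSSSCG00000038182, also highest in the epididymis, but with 2.29 TPM there and 1.40 TPM in testis. The unnamed gene ENSSSCG00000052185 overlaps SPINK14 on the same strand and had no values. On its right is ENSSSCG00000029257, on the minus strand from 149425057 to 149644965, a span that holds SPINK6, SPINK7 and SPINK9. No exon of this gene overlaps an exon of those genes. It had 846 TPM in the epididymis and 12500 TPM in the vesicular gland. ENSSSCG00000047137, on the left of SPINK7, had 3.27 to 245 TPM and 344 to 678 TPM in the same glands. Both genes were higher in every vesicular gland library than in any epididymis library, the reverse of SPINK14. FBXO38 follows SPINK9, MARCOL follows SPINK6, JAKMIP2 and C5orf46 flank SPINK1, and BAG1, with 202 TPM in testis, precedes SPINK4.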

How the data were processed

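RNA was extracted from each gland, and the authors sequenced paired-end RNA-seq, PacBio Iso-seq and small RNA libraries. The small RNA libraries were not used. The study's methods describe selection of mRNA with poly-T beads, and the labels describe rRNA depletion. The deposited TPM were made by the authors with Salmon 1.9.0 on Ensembl release 107 (Sscrofa11.1) joined with Iso-seq isoforms outside full and incomplete splice matches. The deposited counts of full-length reads per isoform came from IsoSeq3 clustering, alignment with GMAP (the submitters' processing notes name GSNAP), cDNA_Cupcake and SQANTI3. Other deposited numbers used were the length, exon number and open reading frame of each isoform and feature positions. Library totals of full-length reads were 231413 to 458697.

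TPM of all transcripts of a gene were summed. Genes that reached 1 TPM in 3 or more libraries were tested on log2(TPM + 1) with limma 3.58.1 in R 4.3.3. Such differences understate the change of low genes. A fit of the 10 breed-by-gland means to 30 libraries (20 residual degrees of freedom) gave gland, pair, mean breed and interaction tests, and each gland's 6 libraries (4 residual degrees of freedom) gave its breed test. Scripts were tested on simulated data. Sequences were read from the Sscrofa11.1 genome of RefSeq at the annotation's positions. Named genes were all SPINK genes, the 5 genes with a symbol most correlated with each member of at least 5 TPM in a gland, up to 4 genes per list by highest mean TPM in any gland, and direct neighbours. CRISP1, CRISP3, LCN10, BSPH1, DEFB129, the gene antisense to SPINK7 and the gene at the place of SPINK2 are outside this rule and were chosen after their values were seen. The members and lists were chosen with earlier results of these data known. Alternatives were another pseudocount, other filters, size factors, Ensembl transcripts alone, a trended robust fit, a replicate block and leaving out each library. The replicate numbers were not taken to pair libraries.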

Additional observations from a re-analysis of the deposited data

Results flagged for a closer look

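In 14 groups of 6 libraries whose highest value was at least 1 TPM, the gap from the farthest library to its nearest neighbour was set against the range of the group and compared with the 95% critical value of Dixon. Chance passes it in about 1 in 20 groups of normally distributed values, a rate that does not hold here, since values were mostly at or near 0 and each of the 4 groups found entered through the library that stood apart. SPINK14 in the prostate gland had 31.1 TPM in BMI replicate 2, and SPINK9 had 1.93 TPM in the same library, the one with high levels of vesicular gland genes. SPINK1 in the epididymis had 16.4 TPM in DSE replicate 1, which also held the least SPINK14 and CRISP1 of its gland. The study lists this epididymis library with the lowest median transcript integrity of its RNA-seq libraries. The part of RNA integrity in these values was not tested. SPINK4 in testis had 1.66 TPM in BMI replicate 3.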

How the results depend on the processing

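Gland contrasts gave 8 calls, 8 to 10 when each library was left out in turn, 11 with a pseudocount of 0.1 and 7 with Ensembl transcripts alone. Pairs of glands gave 16 calls, 15 to 18 when each library was left out, 19 with a pseudocount of 0.1 and 13 with Ensembl transcripts alone. Breed contrasts within glands, over all glands and the interaction gave 0 calls under each library left out. Without a filter on low values the interaction count rose to 1, that of SPINK5 (limma adjusted p = 0.0296), and SPINK6 was called higher in the epididymis than in the mean of the other glands (95% interval 0.59 to 1.42, limma adjusted p = 0.0003747). Without BMI epididymis 1 and DSE epididymis 2, left out after seeing the data, the Kazal domain relatives higher in the epididymis fell from 14 to 4. Counting an isoform from 2 full-length reads lowered the detections of SPINK isoforms in Iso-seq libraries from 5 to 3. The 31 single results were the comparisons called between glands and the breed results of SPINK14 outside testis and bulbourethral gland. The SPINK14 transcript shares in vesicular and prostate gland were also among them. Over all alternatives 1041 values kept direction and side of the thresholds or kept the share, 18 lost the call and 1 reversed. Many of the values kept could not change by design. A breed difference within a gland keeps its estimate when a library of another gland is left out. The reversed value was SPINK14 in the vesicular gland with Ensembl transcripts alone, -0.50. The other lost calls outside that setting and the left-out libraries were 4, all of SPINK9. Its difference between epididymis and vesicular gland lost the call with a pseudocount of 0.1 (limma adjusted p = 0.07566) and without a filter (0.05095), and testis against prostate gland without a filter (0.06286) and with size factors (0.09235). The former was also lost without DSE epididymis 2, BMI vesicular gland 1, DSE vesicular gland 1 or DSE vesicular gland 3, and the latter without any of 7 libraries, BMI testis 2 or 3, DSE testis 3, BMI prostate gland 1 or 3, and DSE prostate gland 2 or 3. Other comparisons not called at first are not among these 31, and with a pseudocount of 0.1 there were 7 gained calls between glands, 6 of SPINK7 and 1 of SPINK9. Leaving out 1 library moved the SPINK14 breed difference between -2.56 and -0.75 in the epididymis, and between -2.55 and -0.04 in the prostate gland. Libraries sharing a replicate number deviated together, with r above 0.1, in 21 of 60 pairs between glands and 4 of 15 between breeds, against 18 of 120 and 10 of 30 pairs with different numbers, and 21 of 30 libraries correlated best with their own number, which is a hint from the data and not from the labels. With the replicate block the gland contrasts gave 8 calls, the pairs 16 and the breed and interaction tests 0, and it changed no call. The study reports the read depth of its RNA-seq libraries, but the deposited TPM do not give the reads behind each value. In Iso-seq, where the family had 9 reads, an absent isoform means only that it was not detectable at this depth.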

Other observations

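Several Kazal inhibitors of the boar tract carry no SPINK name in the deposited annotation, and their values are given here as a description, chosen after the data were seen. They are genes without a symbol that share strand and place with a named RefSeq gene of the same build. ENSSSCG00000038107 is at the place of SPINK2, the acrosin inhibitor of sperm. It had 1780 ± 584 TPM in testis and 765 ± 524 TPM in the epididymis (SD, n = 6 each), and means of 0.909 to 12.3 TPM in the 3 accessory glands. Its testis libraries ran from 619 to 2167 TPM. This makes it far more abundant in testis than SPINK7 or SPINK9.

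ENSSSCG00000047137, at the place of SPINK13, had 520 ± 129 TPM in the vesicular gland (SD, n = 6) and 3.27 to 245 TPM in the epididymis. ENSSSCG00000029257, at the place of the acrosin inhibitor of seminal plasma, had 12500 ± 2358 TPM in the vesicular gland and 846 ± 782 TPM in the epididymis. In the prostate gland, BMI replicate 2 had 295 TPM of the former and 7256 TPM of the latter, against at most 0.669 and 42.3 TPM in the other 5 libraries.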
